A study of Danio rerio with 12 samples.

Results

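The 10 genes described here encode a glucose transporter and the enzymes of glycolysis, the breakdown of glucose to pyruvate and lactate. They are *slc2a1a*, *hk2*, *aldoaa*, *tpi1b*, *gapdhs*, *pgk1*, *pgam1a*, *eno1a*, *pkma* and *ldha*. They were chosen by gene name, with earlier results of these data known. The set makes up 10 of the 25607 zebrafish genes in the count table. All 10 were found, 4 by their own symbol (*hk2*, *gapdhs*, *pgam1a* and *ldha*). The other 6 were found by a human-style symbol together with the named genes around them. For *pgk1* that symbol was *pgk2*, and 15 of 18 named genes around it matched.

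RNA-seq was performed on tumor cells of zebrafish that carry human *IRF4* and the red fluorescent marker mCherry under the *lck* promoter, which is active in lymphocytes. Tumor-bearing animals were kept in water with 4 μM JQ1, a small-molecule inhibitor of BRD proteins (readers of acetylated histones), or with its solvent DMSO. Cells positive for mCherry were then sorted. The 4 groups were JQ1 day 1, DMSO day 1, JQ1 day 3 and DMSO day 3, with 3 libraries in each. The study names independent animals for its 3 JQ1-treated and 3 control samples, which it describes at day 3. For day 1 the labels give replicate numbers only. All groups thus shared the transgenes and the sort, the bulk RNA-seq animals were 10 months old per the study's methods, which give wild-type *p53* for the imaged fish of the drug treatment, while the labels name no *p53* genotype, and the time of 1 day is given by the sample labels, whereas the methods text describes 3 days.

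In glycolysis, glucose enters the cell through transporters of the *slc2a* family and is trapped by hexokinase. Aldolase then splits the sugar, and triose phosphate isomerase, glyceraldehyde 3-phosphate dehydrogenase, phosphoglycerate kinase, phosphoglycerate mutase, enolase and pyruvate kinase convert the products to pyruvate with a gain of ATP. Lactate dehydrogenase turns pyruvate into lactate, which leaves the cell through *slc16a* carriers. Dividing lymphocytes and many tumors run this pathway at a high rate even with oxygen present, and in mammals the hypoxia-inducible factor HIF and MYC raise the transcription of many of its genes. Zebrafish kept extra copies of several of these genes from a genome duplication, so that *aldoaa* or *eno1a* is only one of several genes for its step.

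Libraries held 8176139 to 12771912 counts on zebrafish genes, and 0 counts of a gene allow a level of up to 0.235 to 0.367 CPM (counts per 1e6 zebrafish gene counts), a limit of 3 counts that covers counting error only. Single genes are given below as CPM normalized by edgeR's TMM method, with the libraries in the order of replicates 1, 2 and 3. The human *IRF4* and mCherry transgenes were present in every library, at 786.5 to 6294 CPM in JQ1 day 3, 6791 to 11530 CPM in DMSO day 3, 3962 to 11180 CPM in JQ1 day 1 and 7284 to 10450 CPM in DMSO day 1. The T-cell markers *lck*, *bcl11ba*, *themis* and *lat* summed to 501 to 1804 CPM in JQ1 day 3, against 2755 to 3653 CPM in DMSO day 3, and to 1852 to 2978 CPM in JQ1 day 1, against 2198 to 3766 CPM in DMSO day 1. Fewer cells of a type and less RNA per cell cannot be told apart in such bulk samples.

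Libraries of the same group differed widely for these genes, and 1 control library stood apart. DMSO day 1 replicate 2 held the highest level of all 12 libraries for 7 of the 10 genes (*aldoaa*, *tpi1b*, *gapdhs*, *pgk1*, *pgam1a*, *eno1a* and *ldha*), whereas it was the highest library for 5.82% of the 18118 genes with enough counts over the 12 libraries. JQ1 day 3 replicate 2 was the highest for *hk2* and *pkma*, and it was the highest library for 17.1% of all genes. It also had the lowest levels of the transgenes (786.5 CPM) and of T-cell markers (501 CPM). JQ1 day 1 replicate 2 was the highest for *slc2a1a*. The summed level of the 10 genes was 1746, 3506 and 2171 CPM in JQ1 day 3, against 1754, 2336 and 1488 CPM in DMSO day 3. At day 1 it was 3740, 2692 and 1987 CPM in JQ1, against 1814, 7093 and 1711 CPM in DMSO. The sums overlapped between treatments on both days.

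**Figure D1:**
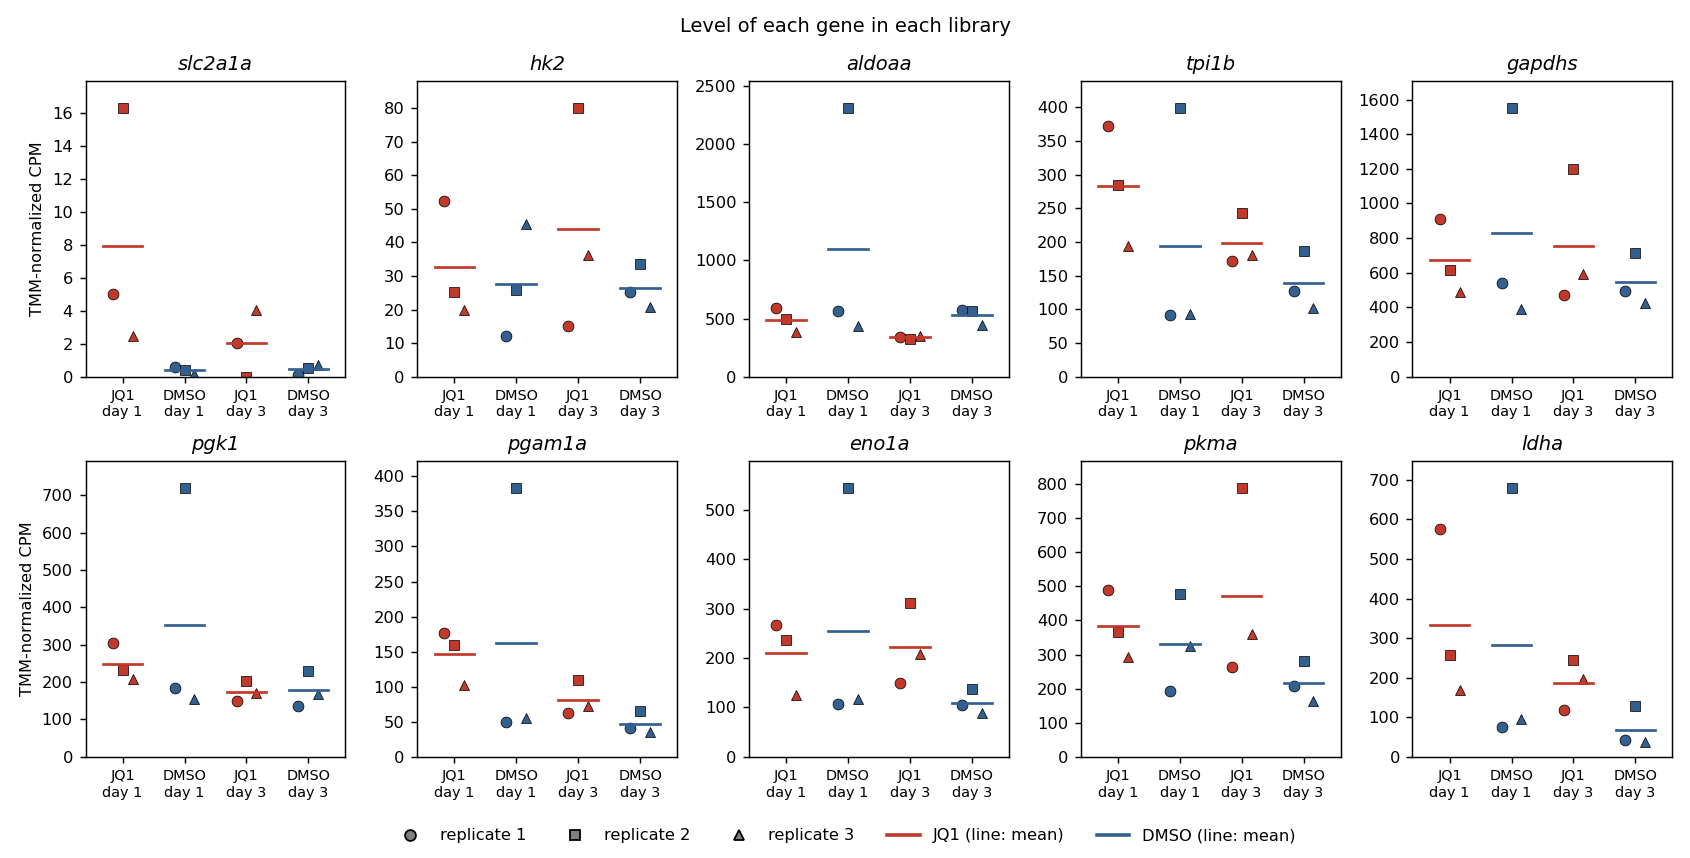
TMM-normalized CPM of each of the 10 genes (vertical axis, from 0, a scale of its own per gene) in the 12 libraries, by group; points are libraries, symbols mark the replicate number and lines mark the group mean. DMSO day 1 replicate 2 is the highest point in 7 of the 10 panels, as for *aldoaa* with 2314 CPM, and JQ1 day 3 replicate 2 in those of *hk2* and *pkma*.

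The JQ1-treated samples of day 3 were first compared with the DMSO-treated samples of day 3, which asks what the inhibitor changed in the sorted cells. Among the 10 genes, enolase was the only step with a called change, while other copies of several steps also passed (given below). *eno1a* rose with an adjusted p just under 0.05, *ldha*, *pkma* and *pgam1a* had higher means without passing the test, and *aldoaa* had a lower mean without passing it. Of the 10 genes, 9 had enough counts for edgeR's quasi-likelihood test, and 1 of 9 passed a Benjamini-Hochberg adjusted p of 0.05, higher after JQ1, beside 25.2% of all 16273 genes tested in either direction and 15.3% higher. At an unadjusted p under 0.05 there were 5 of 9, beside 43.6% of all genes. The log2 fold change was above 0 for 8 of 9, against 51.3% of all genes, and its median was 0.80, against 0.05 over all genes.

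*slc2a1a* encodes a copy of GLUT1, the transporter that supplies glucose to most cells at rest in mammals. It had 2.06, 0 and 4.03 CPM in JQ1 day 3, against 0.0861, 0.545 and 0.683 CPM in DMSO day 3, and was too low for the test. These levels rest on 27, 0 and 51 counts in JQ1 and 1, 5 and 5 counts in DMSO, so JQ1 replicates 1 and 3 lay above every DMSO library, while JQ1 replicate 2 and the DMSO libraries held too few counts to be ordered. *hk2*, the hexokinase isoform that many tumors use in mammals, had 15.2, 80.2 and 36.3 CPM in JQ1 day 3, against 25.1, 33.5 and 20.6 CPM in DMSO day 3. The groups overlapped, and the log2 fold change of 0.80 (standard error 0.57, edgeR adjusted p = 0.312) was 0.001 without JQ1 replicate 2.

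*aldoaa*, a copy of aldolase A, had 343, 326 and 349 CPM in JQ1 day 3, against 575, 565 and 447 CPM in DMSO day 3. All 3 JQ1 libraries lay below all 3 DMSO libraries and close to each other, a pattern shared by 26.5% of all genes tested. The log2 fold change was −0.58 (standard error 0.20) and did not pass the threshold (adjusted p = 0.072 from edgeR), while DESeq2 with its own size factors gave −0.54 with an adjusted p of 0.0278. *aldoaa* was the gene whose level was least variable among the JQ1 libraries, at 339.1 ± 12.03 CPM (SD, n = 3), and it had 529 ± 71.0 CPM (SD, n = 3) in DMSO.

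The middle of the pathway showed smaller differences. *tpi1b*, the triose phosphate isomerase gene, had 172, 242 and 180.3 CPM in JQ1 day 3, against 128, 187 and 102 CPM in DMSO day 3 (log2 fold change 0.58 with a standard error of 0.28, edgeR adjusted p = 0.161). *gapdhs*, a glyceraldehyde 3-phosphate dehydrogenase gene, had 472, 1200 and 592 CPM in JQ1 day 3, against 496, 712 and 427 CPM in DMSO day 3, and its log2 fold change of 0.54 (standard error 0.41, edgeR adjusted p = 0.347) was 0.004 without JQ1 replicate 2. *pgk1*, which makes the first ATP of the pathway, had 149, 203 and 169.8 CPM in JQ1 day 3, against 137, 229 and 167 CPM in DMSO day 3. Its log2 fold change was 0.03 (standard error 0.25), the smallest of the 9, and its sign changed with the scaling and with single libraries. The groups overlapped for all 3 of these genes, and the value of *tpi1b* was 0.32 without DMSO replicate 3 and 0.38 without JQ1 replicate 2.

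With all libraries, *pgam1a*, *eno1a*, *pkma* and *ldha* had larger log2 fold changes than *tpi1b*, *gapdhs* and *pgk1*. A trend along the pathway was not tested. *pgam1a*, a phosphoglycerate mutase gene, had 62.5, 110.1 and 72.7 CPM in JQ1 day 3, against 41.4, 64.7 and 35.2 CPM in DMSO day 3. JQ1 replicate 1 lay below DMSO replicate 2, and the log2 fold change was 0.86 (standard error 0.33, edgeR adjusted p = 0.0885), or 0.56 without JQ1 replicate 2. *eno1a*, a copy of enolase 1, had 149, 310.7 and 209 CPM in JQ1 day 3, against 105, 137 and 88.3 CPM in DMSO day 3. The groups did not overlap, as for 24.8% of all genes tested with JQ1 higher, and the log2 fold change was 1.08 (standard error 0.32, edgeR adjusted p = 0.0496). The call was kept without JQ1 replicate 1 (adjusted p = 0.0463 from edgeR) and lost without any other library, with adjusted p from 0.0801 without JQ1 replicate 3 to 0.161 without DMSO replicate 3, where no gene at all was called without any 1 of the 3 DMSO libraries, and it was lost with ERCC scaling (log2 fold change 0.69, adjusted p = 0.175 from edgeR).

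*pkma*, a copy of muscle-type pyruvate kinase, which makes the second ATP and pyruvate, had 263, 788 and 361 CPM in JQ1 day 3, against 207, 281 and 163 CPM in DMSO day 3. JQ1 replicate 2 lay far above the others, JQ1 replicate 1 lay below DMSO replicate 2, and the log2 fold change of 1.18 (standard error 0.45, edgeR adjusted p = 0.0898) was 0.56 without JQ1 replicate 2. *ldha*, which makes lactate, had 119, 246 and 197 CPM in JQ1 day 3, against 41.7, 128 and 36.6 CPM in DMSO day 3. Its log2 fold change of 1.51 (standard error 0.54) was the largest of the 9 genes tested and did not pass the threshold (adjusted p = 0.0761 from edgeR). JQ1 replicate 1 lay below DMSO replicate 2, and the value ranged from 1.124 without DMSO replicate 3 to 2.25 without DMSO replicate 2. With DESeq2 and its own size factors, *ldha*, *pkma* and *eno1a* passed as higher and *aldoaa* as lower (adjusted p of 0.0223, 0.0375, 0.0129 and 0.0278). That setting called 38.7% of all genes tested, with 23.8% higher and 14.9% lower.

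Total RNA per cell entered the comparison through the ERCC spike-in, which was added by cell number. Zebrafish gene counts were 51.7 to 62.4 per ERCC count in JQ1 day 3, against 83.5 to 102 in DMSO day 3, and 21.8 to 64.3 in JQ1 day 1, against 88.8 to 108 in DMSO day 1. With libraries scaled by ERCC counts, the log2 fold change over all genes had a median of −0.38 at day 3 and −1.51 at day 1, and calls over all genes at day 3 were 1837 higher and 3830 lower, against 2491 higher and 1613 lower with TMM. On this scale *aldoaa* fell at day 3, by 1.02 on the log2 scale (adjusted p = 0.0234 from edgeR), which lay −0.64 from the median of all genes. No other gene of the 10 passed at day 3 with ERCC scaling. *ldha* stood at 1.125 and *pkma* at 0.82, and *pgk1* was at −0.36, within 0.02 of the median of all genes.

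**Figure D2:**
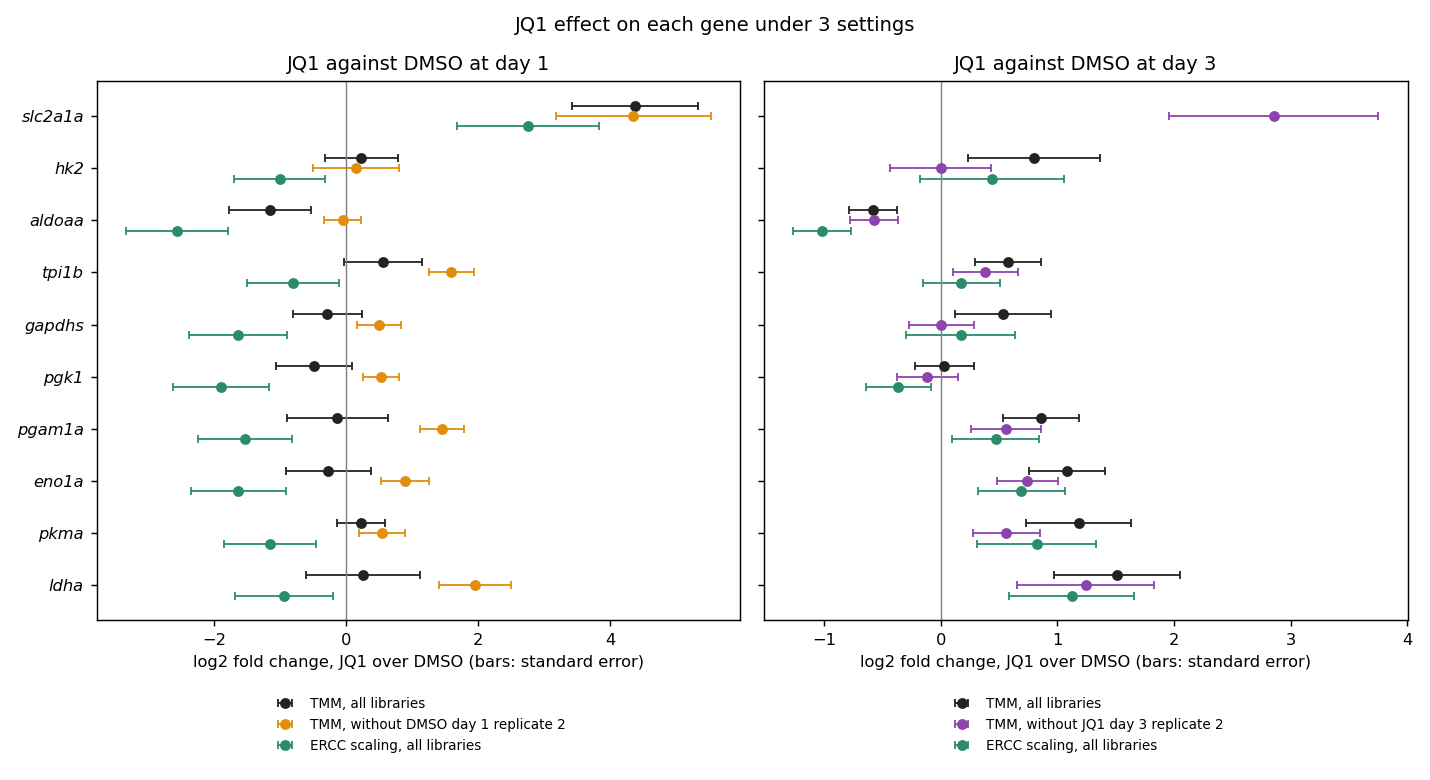
Log2 fold change of JQ1 over DMSO (horizontal axis; points with bars of 1 standard error) for each gene at day 1 (left) and day 3 (right), with TMM over all libraries, with TMM without 1 library and with ERCC scaling. At day 1 the points of *pgam1a*, *eno1a*, *gapdhs* and *pgk1* lie below 0 with all libraries and above 0 without DMSO day 1 replicate 2; *slc2a1a* was tested at day 3 only with JQ1 replicate 2 left out, among the settings drawn.

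At day 1, none of the 10 genes passed the threshold. The gene with the largest difference was the transporter *slc2a1a*, with 5.01, 16.3 and 2.45 CPM in JQ1 day 1, against 0.608, 0.384 and 0.147 CPM in DMSO day 1. Every JQ1 library lay above every DMSO library, as for 16.3% of all genes tested. These levels rest on 51, 188 and 28 counts in JQ1 and 7, 4 and 2 counts in DMSO. The log2 fold change was 4.38 (standard error 0.95, edgeR adjusted p = 0.0716), and DESeq2 with its own size factors gave 4.44 with an adjusted p of 1.42e-04. Without JQ1 replicate 2, the highest library, edgeR gave 3.27. edgeR called 0 of 10 genes, beside 0.0443% of 15815 genes tested (7 genes, all higher), and at an unadjusted p under 0.05 there was 1 of 10 (*slc2a1a*), beside 22.4% of all genes. DESeq2 called 1 of 10, beside 12.7% of all genes.

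The other 9 genes overlapped between the groups at day 1, and their order depended on DMSO replicate 2. *ldha* had 577, 257 and 168 CPM in JQ1 day 1, against 74.2, 679 and 96.2 CPM in DMSO day 1, so each JQ1 library lay above DMSO replicates 1 and 3 and below DMSO replicate 2. The same held for *pgam1a* (176, 160.1 and 103 CPM in JQ1, against 49.3, 383 and 55.9 CPM in DMSO), for *eno1a* (266, 237 and 125 CPM in JQ1, against 106, 544 and 116 CPM in DMSO) and for *tpi1b* (372, 284 and 195 CPM in JQ1, against 92.0, 399 and 92.6 CPM in DMSO). *pgk1* did likewise, with 304, 231 and 209 CPM in JQ1 day 1, against 184, 719 and 154 CPM in DMSO day 1. How many of all genes had this order was not counted. With all libraries, the log2 fold changes of these 5 genes lay between −0.48 (*pgk1*) and 0.57 (*tpi1b*), at adjusted p of 0.616 or more from edgeR. Without DMSO replicate 2 they were 1.95 for *ldha*, 1.598 for *tpi1b*, 1.46 for *pgam1a*, 0.89 for *eno1a* and 0.53 for *pgk1*. None passed the threshold there either, with the lowest adjusted p of 0.122 for *tpi1b* (edgeR), and 5 of 10 genes had an unadjusted p under 0.05, as did 3417 of 17058 genes tested.

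*aldoaa* had 587, 498 and 382 CPM in JQ1 day 1, against 561, 2314 and 434 CPM in DMSO day 1, and its log2 fold change was −1.15 (standard error 0.62) with all libraries and −0.05 without DMSO replicate 2. *gapdhs* had 910.7, 618 and 490.2 CPM in JQ1 day 1, against 543, 1552 and 392.2 CPM in DMSO day 1, with log2 fold changes of −0.28 and, without DMSO replicate 2, 0.50. *pkma* had 490.9, 366 and 292 CPM in JQ1 day 1, against 192, 478 and 324 CPM in DMSO day 1 (log2 fold change 0.23). *hk2* had 52.5, 25.4 and 19.8 CPM in JQ1 day 1, against 11.98, 25.9 and 45.4 CPM in DMSO day 1 (log2 fold change 0.24), and the groups covered the same range. With ERCC scaling, edgeR called 3 genes at day 1, *slc2a1a* higher (log2 fold change 2.76, adjusted p = 0.037) and *aldoaa* and *pgk1* lower (−2.56 and −1.89, adjusted p of 0.0114 and 0.0346), beside 248 higher and 5944 lower over all genes. Without DMSO replicate 2, ERCC scaling called none of them, and *aldoaa* stood at −1.47 (adjusted p = 0.179 from edgeR).

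Markers of cell types other than T cells were also measured in the sorted samples. Epithelial markers summed to 412 to 871 CPM in JQ1 day 3, against 28.0 to 119 CPM in DMSO day 3, and to 805 to 1875 CPM in JQ1 day 1, against 28.4 to 164 CPM in DMSO day 1. Macrophage markers summed to 545, 2488 and 1903 CPM in JQ1 day 3, against 127, 269.7 and 49.0 CPM in DMSO day 3, and DMSO day 1 replicate 3 had 1086 CPM. Fast muscle markers summed to 7.27 to 92.4 CPM in JQ1 day 3, against 1.89 to 2.87 CPM in DMSO day 3, and liver markers to 17.4 to 394 CPM, against 4.22 to 18.6 CPM, which overlapped. All matched markers were detected, 5 of 5 for epithelium, 5 of 6 for macrophages, 7 of 10 for fast muscle and 4 of 4 for liver, and none was at 0 in all libraries of a group. The part of these cells in the differences of the 10 genes was not tested.

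DMSO day 1 replicate 2 was then set against DMSO day 1 replicates 1 and 3, as a description of 1 library. *ldha* was 7.97-fold, *pgam1a* 7.28-fold, *eno1a* 4.90-fold, *aldoaa* 4.65-fold, *tpi1b* 4.32-fold, *pgk1* 4.25-fold and *gapdhs* 3.32-fold above the mean of the other DMSO day 1 libraries. *pkma* was 1.85-fold above it, *hk2* was at 0.902-fold and *slc2a1a* at 1.02-fold. Of the 9 genes with at least 5 CPM in this library, 7 were over 2-fold and also over 3-fold higher, beside 7.10% and 3.50% of 9950 genes with at least 5 CPM. The value of *slc2a1a* rests on 4 counts, against 7 and 2 in replicates 1 and 3. Other genes of the first steps were also highest of the 12 libraries here, with the transporter *slc2a1b* at 2.46-fold (56.7 CPM), the glucose phosphate isomerase gene *gpia* at 2.69-fold (482.5 CPM) and the phosphofructokinase gene *pfkpa* at 3.26-fold (276 CPM). Among the other genes of the pathway list, 20 of 94 were highest in this library, beside 5.82% of all genes. JQ1 day 3 replicate 2 was the highest for 26 of 94, beside 17.1% of all genes. For JQ1 day 1 replicate 2 it was 13 of 94, beside 8.13%.

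Several of the genes highest in DMSO day 1 replicate 2 surround glycolysis. *egln3*, a prolyl hydroxylase that marks HIF for degradation and is itself a HIF target in mammals, had 96.8 CPM in DMSO day 1 replicate 2, and at most 7.56 CPM in the other 11 libraries. *gys1*, a glycogen synthase gene, had 80.6 CPM there, and at most 21.6 CPM elsewhere. *pygmb*, a glycogen phosphorylase gene, had 174.5 CPM, and at most 31.2 CPM elsewhere. *slc16a3b*, a copy of the lactate exporter MCT4, had 30.5 CPM, and at most 13.8 CPM elsewhere. *hif1an* and *vhl*, which restrain HIF, had 184 and 26.1 CPM, and at most 55.2 and 19.0 CPM elsewhere. Of the HIF-1 alpha subunit genes, *hif1ab* was not high in this library, at 391 CPM, against 344 and 452 CPM in DMSO day 1 replicates 1 and 3. *hif1al* had 231 CPM, against 93.7 and 144 CPM in the other DMSO day 1 libraries. *hif1aa* had 2.01 CPM, against 0 and 1.54 CPM there. Neither was highest in this library, with up to 482 CPM of *hif1al* and 4.32 CPM of *hif1aa* elsewhere. T-cell markers (3454 CPM), transgenes (9425 CPM), macrophage markers (125 CPM), epithelial markers (38.7 CPM) and fast muscle markers (2.59 CPM) of this library lay between those of DMSO day 1 replicates 1 and 3, while germ cell markers (38.7 CPM) and liver markers (20.2 CPM) lay above both. These non-members were named after their values in this library were seen.

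**Figure D3:**
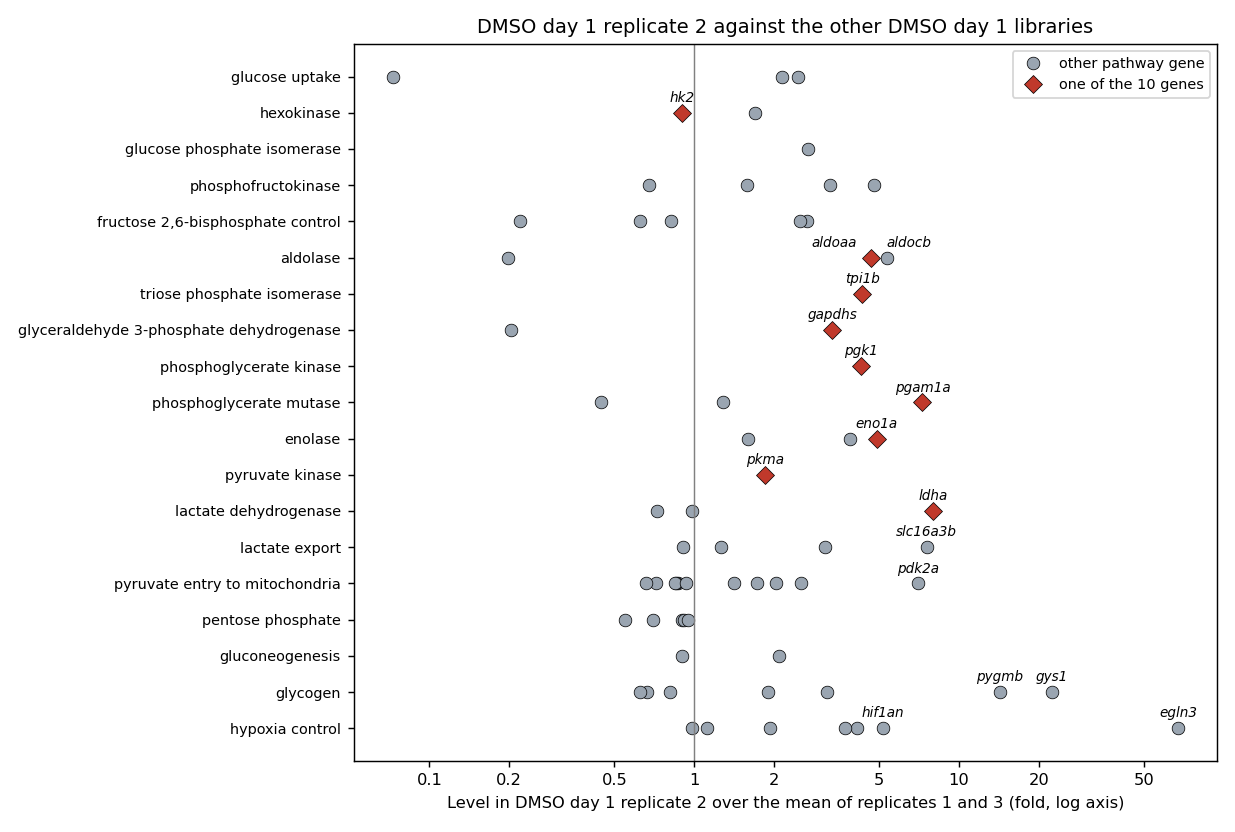
Level in DMSO day 1 replicate 2 over the mean of DMSO day 1 replicates 1 and 3 (horizontal log axis, fold) for the genes with at least 5 CPM in that library, by step of the pathway list; diamonds are those of the 10 genes that reached this level and circles are other pathway genes. 7 diamonds lie above 3-fold, with *ldha* at 7.97-fold, and *egln3* lies farthest right at 67.3-fold.

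The JQ1 groups of both days were compared next. *aldoaa* and *pgk1* were lower in every JQ1 day 3 library than in every JQ1 day 1 library, as were 7.52% of all genes tested, with log2 fold changes of −0.52 (standard error 0.25) and −0.51 (standard error 0.25) for day 3 over day 1. *pgam1a*, with an overlap at 110.1 CPM in JQ1 day 3 replicate 2 and 103 CPM in JQ1 day 1 replicate 3, had the lowest p (log2 fold change −0.84, unadjusted p = 0.0295, adjusted p = 0.629 from edgeR). edgeR called 0 of 10 genes in this comparison, beside 0.0286% of 17462 genes, with 1 of 10 at an unadjusted p under 0.05, beside 7.76% of all genes, and DESeq2 called 0 of 10. Erythrocyte markers were lower at day 3 as well, with sums of 183 to 357 CPM in JQ1 day 3, against 1287 to 2419 CPM in JQ1 day 1, and log2 fold changes below 0 for 4 of 4 markers (median −2.85, 1 called by edgeR, 4 of 6 listed markers matched, none at 0 in all libraries of a group). Their part in the values of the 10 genes was not tested. With ERCC scaling the median of all genes stood at 1.04 for JQ1 day 3 over JQ1 day 1, and *aldoaa*, *pgk1*, *tpi1b* and *pgam1a* turned to between 0.05 and 0.36.

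In the DMSO groups, day 3 against day 1, all 9 genes tested had log2 fold changes below 0, from −0.20 (*hk2*) to −2.16 (*ldha*, standard error 0.97), with a median of −1.09, against −0.03 over all genes, of which 46.6% lay above 0. edgeR called 0 of 9, beside 0% of 14108 genes. At an unadjusted p under 0.05 edgeR had 0 of 9, beside 4.97% of all genes, and DESeq2 called 0 of 9 and 122 of all genes. Without DMSO day 1 replicate 2 the values of the 9 genes lay between −0.40 (*ldha*) and 0.52 (*tpi1b*). The groups overlapped for all 10 genes, a count that has no share over all genes beside it here. Erythrocyte markers summed to 35.7 to 848 CPM in DMSO day 3, against 201 to 2571 CPM in DMSO day 1.

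Whether the JQ1 effect differed between the days was asked with the interaction of treatment and day, fitted to the 12 libraries together. The difference, day 3 minus day 1 on the log2 scale, was 1.31 for *eno1a* (standard error 0.81, edgeR adjusted p = 0.732), 1.21 for *ldha* and −2.14 for *slc2a1a*. edgeR called 0 of 10 genes, beside 0% of 18118 genes. At an unadjusted p under 0.05 there were 0 of 10, beside 6.95% of all genes, and DESeq2 called 0 of 10. Without DMSO day 1 replicate 2 the differences were 0.10 for *eno1a* and −0.53 for *ldha*, and the largest among the enzymes was −1.11 for *tpi1b* (adjusted p = 0.575 from edgeR). A JQ1 effect particular to either day was thus not shown for any of the genes.

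Other copies and regulators of the same steps were taken from a list of 110 genes, of which 104 were matched. At day 3, 85 of them had enough counts, and 21 of 85 (24.7%) rose after JQ1 and 0 of 85 fell, beside 15.3% of all genes higher and 9.91% lower. Their median log2 fold change was 0.76, against 0.05 over all genes. The count was 0 in each fit without 1 DMSO day 3 library, where no gene of the whole table was called either. It was 2 without JQ1 replicate 2, where 747 genes were called (2.26% of all genes higher and 2.23% lower). With ERCC scaling it was 15 higher and 4 lower, beside 11.3% of all genes higher and 23.5% lower. At day 1, edgeR called 0 of 84, or 10 of 87 without DMSO replicate 3, where 9.51% of all genes were called. DESeq2 called 5 of 84, beside 12.7% of all genes. At an unadjusted p under 0.05 edgeR had 8 of 84, beside 22.4% of all genes.

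The genes with the largest differences came from glucose uptake, where 5 of 9 rose, and from enolase, where 3 of 4 rose, while 0 of 5 phosphofructokinase genes and 0 of 3 other lactate dehydrogenase genes passed. Among transporters, *slc2a6* had 91.4, 591 and 139.5 CPM in JQ1 day 3, against 18.3, 21.7 and 5.33 CPM in DMSO day 3 (log2 fold change 4.25, standard error 0.90), and *slc2a10* and *slc2a12* rose with log2 fold changes of 4.27 and 4.17. The copy of GLUT1 other than *slc2a1a*, *slc2a1b*, had 28.6, 46.8 and 36.4 CPM in JQ1 day 3, against 35.2, 38.5 and 18.9 CPM in DMSO day 3, and did not pass. *pfkfb3*, which makes the activator of phosphofructokinase, had 25.7, 175 and 35.9 CPM in JQ1, against 6.197, 9.48 and 3.01 CPM in DMSO (log2 fold change 3.73, standard error 0.87). For *slc2a6*, *slc2a12* and *pfkfb3*, as for *hk2* and *pkma*, JQ1 day 3 replicate 2 was the highest of the 12 libraries, the library with the highest macrophage markers (2488 CPM). *slc2a6* and *pfkfb3* also had 356 and 139 CPM in DMSO day 1 replicate 3, the DMSO library with the highest macrophage markers (1086 CPM), where *hk2* had 45.4 CPM. In JQ1 day 3 replicate 3, with 1903 CPM of macrophage markers, they had 139.5 and 35.9 CPM, and *hk2* had 36.3 CPM. *hk2* and *pkma* were second highest in JQ1 day 1 replicate 1 (52.5 and 490.9 CPM), with 195.6 CPM of macrophage markers. JQ1 day 3 replicate 2 also had the highest germ cell (1001 CPM) and fast muscle markers (92.4 CPM). Among the DMSO libraries, DMSO day 1 replicate 3 also had the highest erythrocyte (2571 CPM), epithelial (163.5 CPM) and endothelial markers (24.2 CPM). The part of macrophages or of any other of these cell types in these values was not tested.

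Among enzymes, *gapdh* had 33.7, 42.0 and 35.1 CPM in JQ1 day 3, against 3.36, 8.39 and 6.15 CPM in DMSO day 3 (log2 fold change 2.69, standard error 0.38). *pklr*, the pyruvate kinase of liver and red cells, rose with a log2 fold change of 3.21, *eno1b* with 2.93 and *eno4*, an enolase of sperm in mammals, with 2.98. *tkta* (transketolase) rose with 3.29, *pygb* (glycogen phosphorylase) with 3.00 and *epas1a*, a copy of the HIF-2 alpha gene, with 3.20. All of these passed an adjusted p of 0.05 in edgeR, and their means in DMSO day 3 were low, with *slc2a6* highest at 15.1 CPM. Epithelial and macrophage markers (given above) and germ cell markers, at 133 to 1001 CPM in JQ1 day 3, against 22.7 to 50 CPM in DMSO day 3, moved in the same direction, and their part was not tested.

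**Figure D4:**
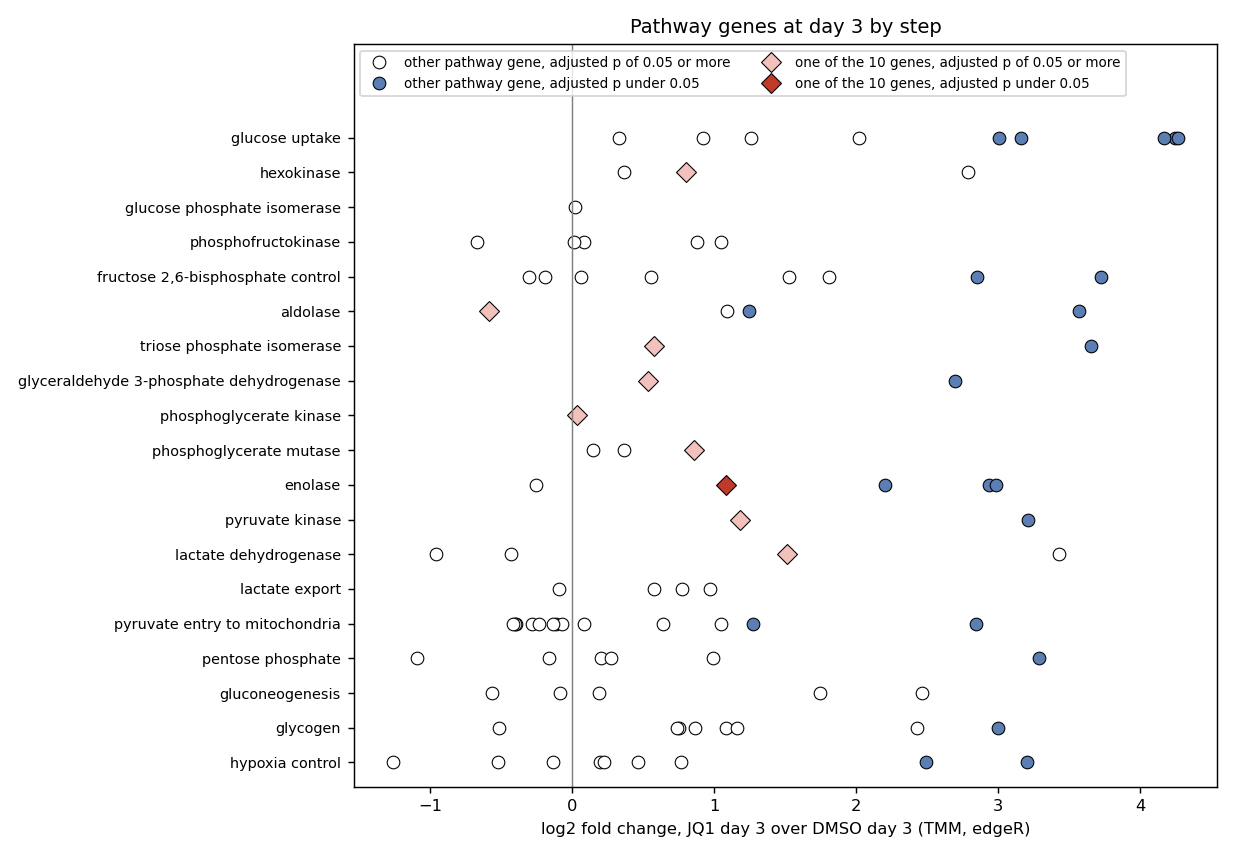
Log2 fold change of JQ1 day 3 over DMSO day 3 (horizontal axis, TMM, edgeR) for the tested genes of each step of the pathway list (rows); diamonds are the 9 tested genes of the 10, circles the other 85, and filled dark symbols passed an adjusted p of 0.05. *aldoaa* lies at −0.58 in the same row as *aldocb* at 1.24, and *eno1a* is the only dark diamond.

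The share of a step's counts that fell on one copy does not depend on the scaling of libraries. *aldoaa* held 39.8% to 61.1% of the counts of the 5 aldolase genes in JQ1 day 3, against 83.0% to 88.8% in DMSO day 3, and 44.5% to 60.4% in JQ1 day 1, against 71.8% to 88.4% in DMSO day 1, so the groups did not overlap on either day. DMSO day 1 replicate 2, the library with the highest *aldoaa*, lay within the range of the other DMSO libraries by this measure. Another copy, *aldocb*, had 124, 226 and 157 CPM in JQ1 day 3, against 65.1, 101.6 and 56.8 CPM in DMSO day 3 and rose (log2 fold change 1.24 with a standard error of 0.33, edgeR adjusted p = 0.0365). *ldha* held 31.1% to 49.0% of the counts of the 4 lactate dehydrogenase genes in JQ1 day 3, against 8.74% to 30.1% in DMSO day 3, and the other main copy *ldhba* had 249, 247 and 205 CPM in JQ1 day 3, against 332, 284 and 365 CPM in DMSO day 3. At day 1 *ldha* held 41.4% to 71.4% in JQ1, against 14.2% to 66.9% in DMSO, where the highest share was in replicate 2. *pgam1a* held 74.4% to 80.9% of the phosphoglycerate mutase counts in JQ1 day 1, against 40.3%, 90.3% and 41.7% in DMSO day 1. *pkma* held at least 96.1%, *tpi1b* at least 97.1% and *gapdhs* at least 81.2% of their steps' counts in every library. These shares count reads without regard to gene length, were chosen after the values were seen and were not tested.

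**Figure D5:**
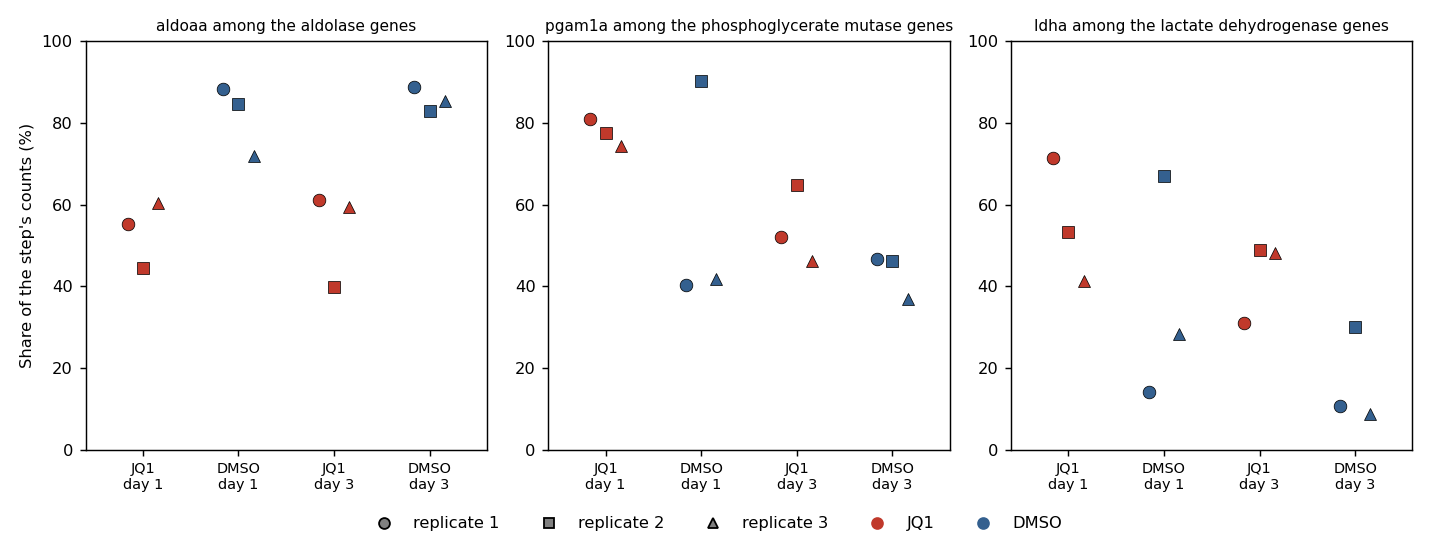
Share of the counts of a step (vertical axis, %) held by *aldoaa*, *pgam1a* and *ldha* in each library (points; symbols mark the replicate number) by group. The JQ1 shares of *aldoaa* lie at or below 61.1% and the DMSO shares at or above 71.8% on both days, whereas for *pgam1a* and *ldha* DMSO day 1 replicate 2 lies far above the other DMSO day 1 libraries.

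Levels of the 10 genes were compared with each other across the 12 libraries as a description, in which the groups and DMSO day 1 replicate 2 are shared by all genes. Over 45 pairs of the 10 genes, Pearson's r of log2 CPM had a median of 0.61 and ranged from −0.26 to 0.95, and without DMSO day 1 replicate 2 the median over 11 libraries was 0.59. *pgam1a* and *ldha* had the highest r, 0.95 with 12 libraries and 0.95 with 11, whereas *aldoaa* and *pgk1* had 0.85 with 12 libraries and 0.31 with 11. The genes outside the 10 whose level across libraries was most like that of *ldha* were *aldocb* (r = 0.94), NOCT (0.91), PCDH20 (0.90), *tiparp* (0.90) and NR4A3 (0.89), in capitals where the name table gives the human form. The genes most like the mean of the 10 standardized levels were *aldocb* (0.96), PCDH20 (0.94), *slc16a3b* (0.90), *tiparp* (0.88) and NOCT (0.88). Without DMSO day 1 replicate 2, r over 11 libraries was 0.91 between *ldha* and *aldocb* and 0.83 between the mean of the 10 and *slc16a3b*.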

How the data were processed

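RNA from 12 sorted tumor cell samples was sequenced by the authors as strand-specific paired-end reads, aligned to GRCz11 with STAR 2.5.2a keeping reads with 1 mapping place, and counted per Ensembl gene with featureCounts. Reads shared by near-identical copies are thus lost. The deposited counts are whole numbers without normalization. The authors' DESeq2 1.12.4 tables (mean normalized counts, log2 fold changes, p-values) were not used. Members and gene lists were chosen with earlier results of these data known. Identifiers were matched by symbol, or by human-style symbol (*pgk2* for *pgk1*) and at least 5 named neighbours within 10 rows. In R 4.3.3, edgeR 4.0.16 was run per comparison (filterByExpr, TMM over zebrafish genes, quasi-likelihood test, two-sided, Benjamini-Hochberg over all genes, threshold 0.05) after tests on simulated data, and DESeq2 1.42.0, ERCC scaling, no filter, 1 fit over 12 libraries, a replicate block and leaving out each library were the alternatives. Standard errors were derived from the F statistic. Named besides the 10 genes were up to 12 called pathway genes per comparison with at least 5 CPM and the largest fold changes, other copies of each step, and the 5 genes most correlated with *ldha* and with the mean of the 10 (log2 CPM, prior count 2). Sums over markers are TMM-normalized CPM, and transgene levels are CPM without TMM. Single genes that the rule picks but that are withheld are not reported here. With 3 libraries against 3, an exact permutation test of a single value cannot go below p = 0.1. All replicates differed by more than sampling noise.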

Additional observations from a re-analysis of the deposited data

How the results depend on the processing

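None of the 10 genes was called in a setting that turned its direction. Of 10 genes, edgeR called 1 at day 3 in the comparison of JQ1 with DMSO, beside 25.2% of all genes tested. DESeq2 with its own size factors called 4, beside 38.7%. No filter called 0, beside 13.3%, and 1 fit over all 12 libraries called 0, beside 22.2%. Fits without 1 library called 0 to 1, beside 0% to 22.3%. ERCC scaling called 1 at day 3, *aldoaa* in place of *eno1a*, beside 34.8%. At day 1 the count of 0, beside 0.0443% of all genes, became 1 with DESeq2, beside 12.7%. It was 3 with ERCC scaling in edgeR, beside 39.2%, and 4 with ERCC size factors in DESeq2, beside 49.9%. It was 0 with ERCC scaling and without DMSO day 1 replicate 2, beside 18.4%, a setting chosen after seeing the data. The causes were not tested, other than that ERCC scaling by its construction shifts all genes. No member was called in the comparisons between days in any setting. The 21 of 85 other pathway genes that rose at day 3 were 31 of 85 with DESeq2, beside 23.8% of all genes higher. DESeq2 also called 1 of them lower, beside 14.9% of all genes. The count higher was 14 of 104 with no filter, beside 7.42%, and 14 of 94 with 1 fit, beside 12.2%. Over all genes, 4104 calls at day 3 became 6295 with DESeq2, or 38.7% of all genes tested. The 7 calls at day 1 became 2015 with DESeq2, 6192 with ERCC scaling, 225 with no filter and 891 with 1 fit. For JQ1 day 3 over day 1 the 5 calls became 187 with DESeq2 and 633 with ERCC scaling, and for the change between days 0 became 39 with DESeq2.

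The labels do not say whether replicate numbers pair the samples, and with 3 libraries per group the values below cannot settle it. Deviations from group means correlated at −0.28 to 0.14 between samples with the same number, and a replicate block called 0 of 10 genes at day 3, where 0 of all genes were called, against 4104 without the block, and 6098 had an unadjusted p under 0.05. With the replicate block, the day 1 values of *pgam1a* and *eno1a* were 0.54 and 0.10, and *hk2* for DMSO day 3 over day 1 was 0.027.

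Values that turned sign were as follows, all log2 fold changes. *pgk1* at day 3 was −0.36 with ERCC scaling in either tool, −0.065 with no filter and −0.029 with 1 fit. With ERCC scaling at day 1, *hk2* was −1.005 in edgeR and −1.004 in DESeq2, and in either tool *tpi1b* was −0.79, *pkma* −1.15 and *ldha* −0.94. With ERCC scaling and without DMSO day 1 replicate 2, *hk2* was −1.06, *pgam1a* 0.051 and *pkma* −0.82. For JQ1 day 3 over day 1, ERCC scaling in either tool gave *aldoaa* 0.33, *tpi1b* 0.32, *pgk1* 0.36 and *pgam1a* 0.05. For the change between days, *tpi1b* was 0.092 with DESeq2, 0.97 with ERCC scaling in either tool and 0.13 with no filter.

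Without 1 library, the ranges of those that turned sign were as follows. At day 3 *pgk1* ranged from −0.18 to 0.19. At day 1 *hk2* ranged from −0.30 to 0.77, *gapdhs* from −0.65 to 0.50, *pgk1* from −0.88 to 0.53, *pgam1a* from −0.60 to 1.46, *eno1a* from −0.67 to 0.89, *pkma* from −0.082 to 0.55 and *ldha* from −0.41 to 1.95. For DMSO day 3 over day 1 *hk2* ranged from −0.56 to 0.41, *aldoaa* from −1.52 to 0.037, *tpi1b* from −0.94 to 0.52, *gapdhs* from −1.02 to 0.17 and *pgk1* from −1.43 to 0.012. For JQ1 day 3 over day 1 *hk2* ranged from −0.33 to 0.95, *gapdhs* from −0.33 to 0.44, *eno1a* from −0.22 to 0.29 and *pkma* from −0.29 to 0.56. For the change between days *hk2* ranged from −0.12 to 1.05, *aldoaa* from −0.62 to 1.06, *tpi1b* from −1.11 to 0.47, *gapdhs* from −0.062 to 1.25, *pgk1* from −0.59 to 0.98, *pgam1a* from −0.69 to 1.55 and *ldha* from −0.53 to 2.16.

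Depth limited *slc2a1a*, with 0 to 188 counts per library. Of the values of single genes, 305 without 1 library and 240 in other settings kept direction and side of the threshold.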

Other observations

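Steps that branch from glycolysis were counted in the comparison of JQ1 day 3 with DMSO day 3 by edgeR, beside 15.3% of all genes called higher and 9.91% lower. Of 13 tested genes for the entry of pyruvate into mitochondria, 2 rose and 0 fell, and their median log2 fold change was −0.11, against 0.05 over all genes. The share that rose was thus near that of all genes. Both genes that rose encode pyruvate dehydrogenase kinases, enzymes that hold pyruvate back from oxidation. The other kinases of the list did not pass, with lower means after JQ1 for *pdk1* and *pdk3a* and higher means for *pdk2a* and *pdk4*. *pdk2b* had 128, 285 and 119 CPM in JQ1 day 3, against 85.6, 76.6 and 67.2 CPM in DMSO day 3 (log2 fold change 1.28, standard error 0.38, adjusted p = 0.0475), and *pdk3b* had 2.90, 3.44 and 2.21 CPM, against 0.0861, 0.872 and 0.273 CPM (log2 fold change 2.85, standard error 0.83, adjusted p = 0.0463). Of 6 pentose phosphate genes 1 rose, of 8 glycogen genes 1 rose, and of 4 lactate export genes and 5 gluconeogenesis genes none passed. *pck1*, which starts gluconeogenesis, had 96.8 CPM in JQ1 day 3 replicate 2, and 0.153 and 1.82 CPM in JQ1 day 3 replicates 1 and 3.

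Both groups covered much the same range at day 3 for a pair of genes between hexokinase and aldolase. *gpia*, which follows hexokinase, had 171, 177 and 187.5 CPM in JQ1 day 3, against 162, 218 and 169 CPM in DMSO day 3 (log2 fold change 0.02, standard error 0.20, adjusted p = 0.947 from edgeR). *pfkpa*, a phosphofructokinase gene, had 74.4, 90.5 and 117 CPM in JQ1 day 3, against 84.4, 112 and 94.0 CPM in DMSO day 3 (log2 fold change 0.01, standard error 0.23, adjusted p = 0.968 from edgeR). The genes of this section were named after their values were seen.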
